A study of Mus musculus with 10 samples.

Results

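Hox genes are homeobox transcription factors that stand in 4 clusters and give cells their position along the head-to-tail axis. Within a cluster the genes at one end (low paralog group numbers) are used first and furthest forward, and those at the other end later and further back. The neural crest of the first pharyngeal arch is the textbook Hox-free population of the pharynx, while the crest of the second arch depends on Hoxa2 and that of more posterior arches uses group 3 genes and beyond. How Hox-free dissected first arches were, and where Hox signal stood in a Gli2;Gli3 mutant library, was asked of the 39 genes whose symbol is Hoxa, Hoxb, Hoxc or Hoxd followed by a number, out of 33641 gene symbols measured. They comprise 11 genes in HoxA, 10 in HoxB, 9 in HoxC and 9 in HoxD, and are described here in 3 classes, anterior (paralog groups 1 to 3, 8 genes), central (groups 4 to 8, 15 genes) and posterior (groups 9 to 13, 16 genes).

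The study sequenced polyadenylated RNA of mandibular prominences (MNPs), the part of the first arch that forms the lower jaw, from mouse embryos on a CD1 background at embryonic day 10.5. The groups were wild-type (WT, libraries 3 and 4), Hand2 f/f;Wnt1-Cre (Hand2 cKO, libraries 1, 2 and 3) and Wnt1-Cre with Gli2 f/f and Gli3 f/f (Gli2/3 cKO, library 3), and 4 further samples in the labels were not analysed here. Wnt1-Cre deletes in the neural crest lineage, so epithelium, core mesoderm, vessels and blood kept the floxed genes in both mutants. The Gli2/3 cKO group is 1 library, with no replicate, and the sources used here do not say if embryos were pooled.

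Libraries held 21420197 to 53326697 estimated counts, with WT 4 the shallowest and Gli2/3 cKO 3 next at 25421663. All 14 arch patterning genes checked were present in every library. Hand2 stood at 13.4 to 25.5 CPM (counts per 1000000 of the library size after TMM scaling) in the Hand2 cKO libraries against 175 and 209 in WT. The Gli2/3 cKO library had the lowest Gli2 (58.3 CPM) and Gli3 (80.2 CPM), against 105 to 122 and 145 to 176 in WT. Hand2 cKO 2 stood apart in long genes (Kmt2a at 73.0 CPM against 160 to 238 CPM elsewhere), so values that turn on it are also given without it.

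All MNP libraries were close to Hox-free. Summed over the 39 genes, WT 3 held 262 counts and WT 4 held 154. The Hand2 cKO libraries held 488, 140 and 294 counts, and the Gli2/3 cKO library 274. This is 1 Hox read in 92779 reads (Gli2/3 cKO) to 1 in 304706 (Hand2 cKO 2). Per length, in TPM (counts over transcript length, rescaled to a total of 1000000 in each library), the whole Hox complement of WT came to 5.76 TPM, whereas Hand2 alone stood at 166 TPM, 28.8 times as high. The highest single Hox value in any library was 2.76 TPM, below the lowest value of any of the 14 arch patterning genes in any library (3.06 TPM, mutant libraries included).

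Detection was sparse. 6 genes had 0 counts in all 6 libraries (Hoxa6, Hoxb13, Hoxc6, Hoxc11, Hoxc12 and Hoxd12), which allows up to 0.0567 CPM in the deepest library and 0.133 CPM in the shallowest on a limit of 3 counts. Of all protein-coding genes 13.4% also had 0 counts in every library, so the 6 of 39 Hox genes are near that share. 19 genes had a highest count of 1 to 9, and 14 reached 10 counts in at least 1 library. That is 35.9% of the Hox genes, against 73.1% of 21539 protein-coding genes in the same libraries. 7 Hox genes had a count in every library, among them Hoxb2, Hoxb3, Hoxc9 and Hoxc13.

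**Figure D1:**
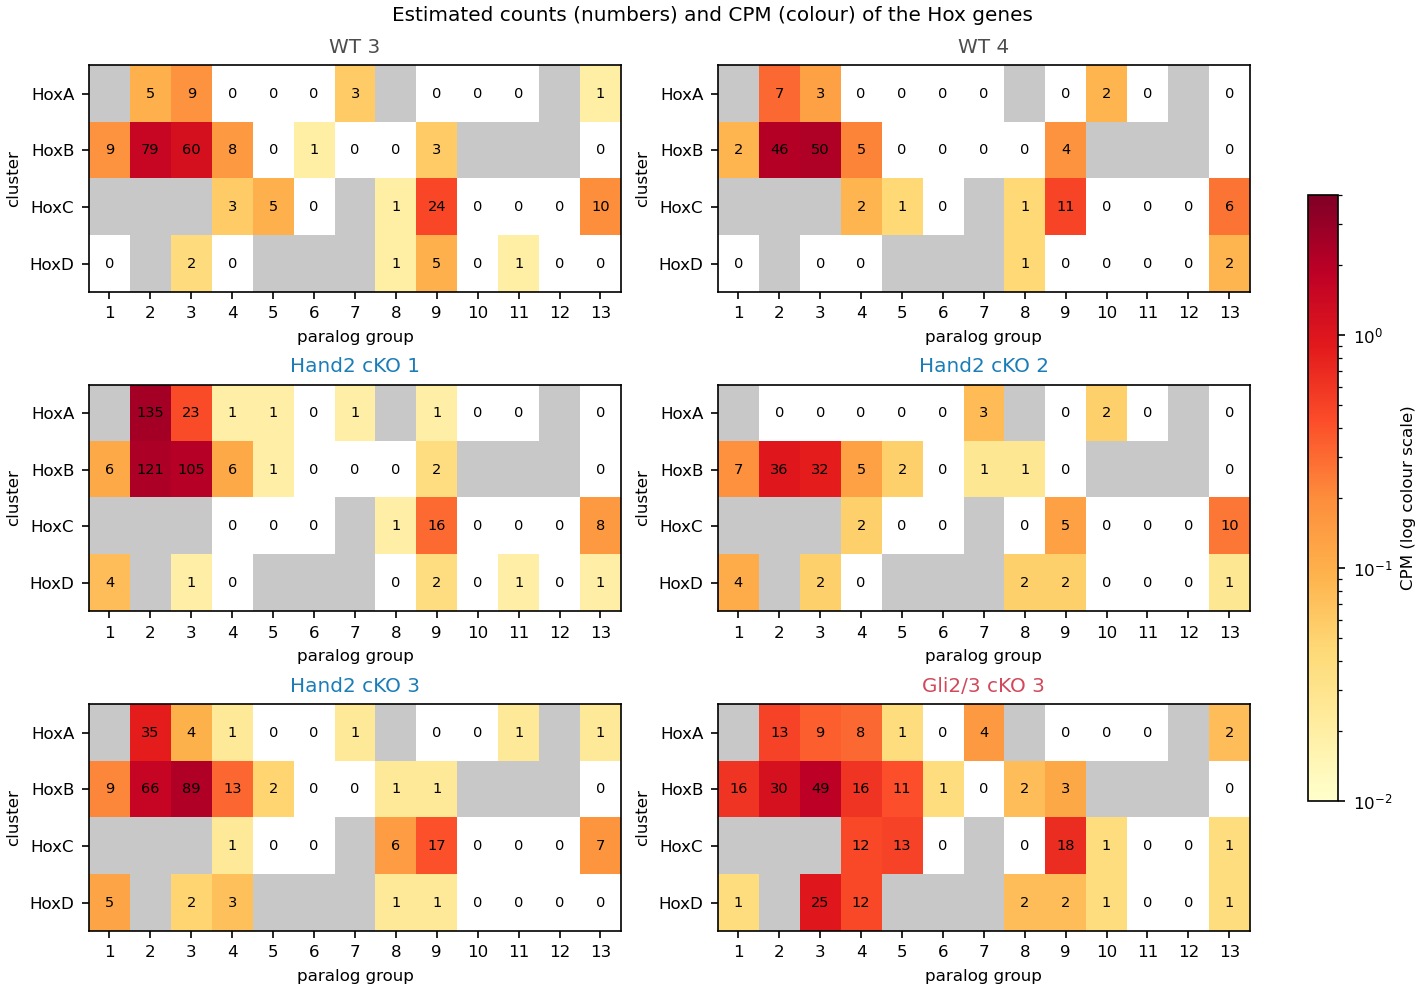
Estimated counts (numbers) and CPM (colour, log scale) of 38 Hox genes in each library, with clusters in rows and paralog groups 1 to 13 in columns. Grey cells are positions with no gene or not shown, and white cells hold 0 counts. The low-numbered HoxB genes are filled in all libraries, and in the Gli2/3 cKO library Hoxd3 (25 counts) and all 4 group 4 genes (8 to 16 counts) are filled as well.

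Levels of the genes next to the clusters were mixed. Of 14 neighbours measured, 9 exceeded every Hox gene in every library, at 4.87 to 241 TPM and at distances of 60.7 to 565 kb from the nearest Hox gene. They include Mtx2, a mitochondrial import gene 60.7 kb from HoxD at 72.5 to 84.4 TPM, and Cbx5, a heterochromatin protein gene 155 kb from HoxC at 97.7 to 241 TPM. Evx1 and Evx2, homeobox genes at the posterior ends of HoxA and HoxD, were as low as the Hox genes, at 0.115 to 0.645 TPM and at most 0.0184 TPM. So were all 3 measured neighbours of HoxB, Ttll6 (at most 0.0646 TPM, 28.9 kb away), Skap1 (0.174 to 0.536 TPM) and Calcoco2 (0.102 to 0.867 TPM). The 9 higher neighbours thus lie beside HoxA, HoxC and HoxD. In GENCODE M21 (mm10) the clusters lie at chr6:52155590-52260880 (HoxA, minus strand), chr11:96194316-96368256 (HoxB), chr15:102921103-103036852 (HoxC) and chr2:74668310-74765142 (HoxD, the last 3 on the plus strand).

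**Figure D2:**
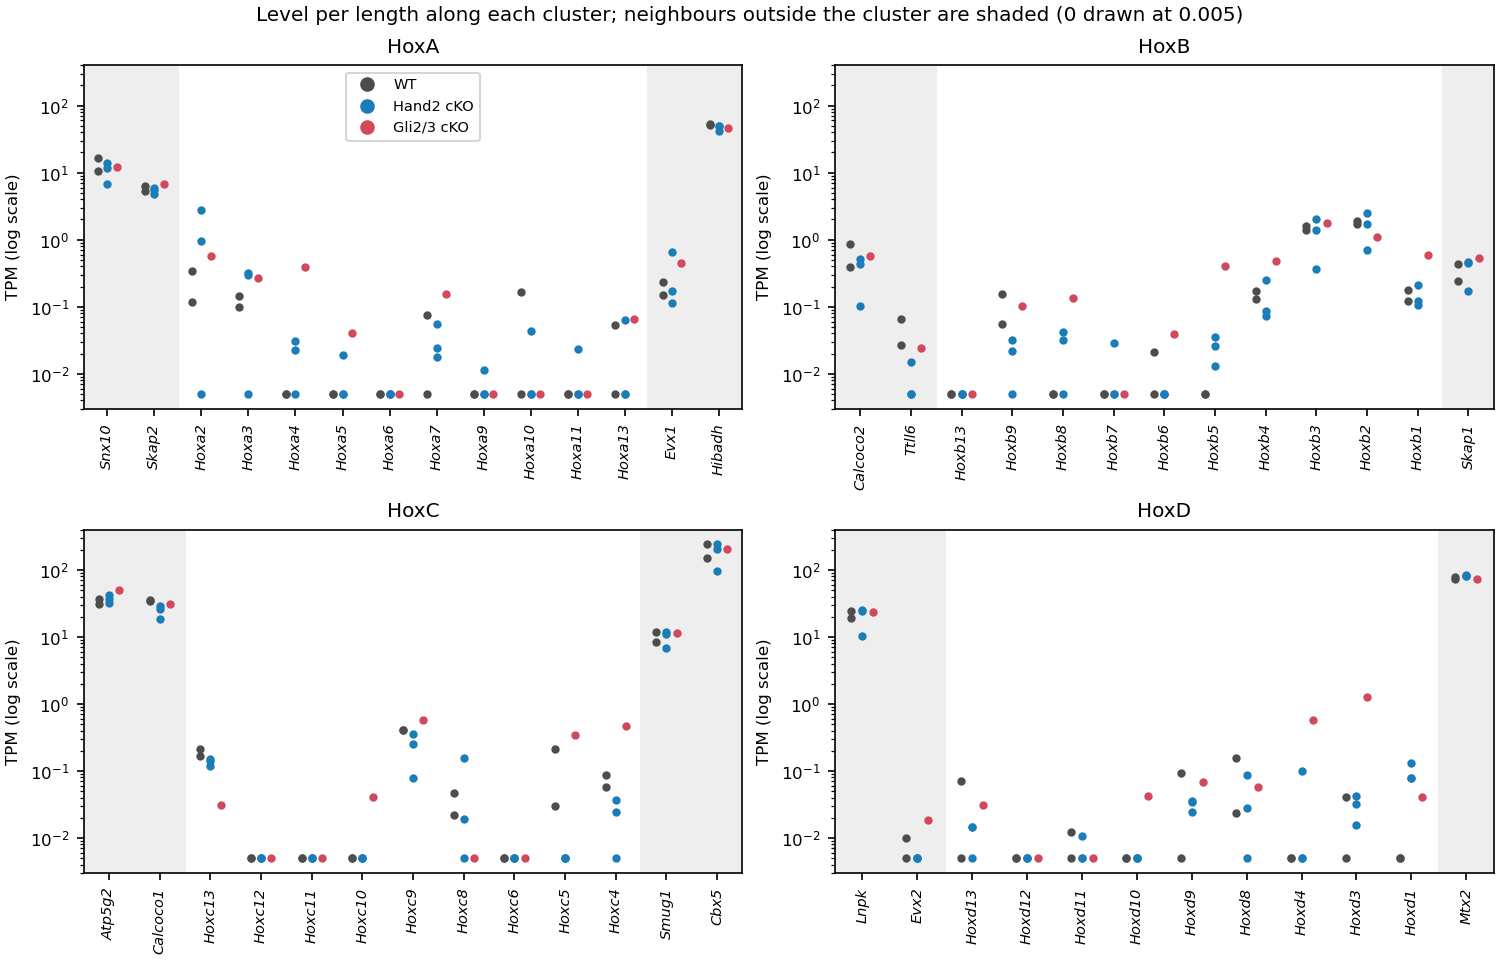
Level per length (TPM, log axis) of the Hox genes shown and their measured neighbours in chromosome order, 1 panel per cluster, with 1 point per library coloured by group. Points at 0 are drawn at 0.005, and shaded columns are genes outside the cluster. Of the 14 neighbours 9 sit above the Hox genes, none of them beside HoxB, and within the clusters the Gli2/3 cKO points stand highest around Hoxa4, Hoxb4, Hoxb5, Hoxc4, Hoxc5, Hoxd3 and Hoxd4.

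Of the 39 genes, 22 have a promoter entry in RefSeq (GRCm38.p6), 7 of them among the 14 genes that reached 10 counts. The 6 of these with the highest mean CPM were searched, and the 5 that held a match are shown, as the bases from 250 to 51 before the annotated start, read 5′ to 3′ on the strand of the gene. Capitals mark matches on either strand to CATCTG (an E-box that Hand factors bind), TGATNNAT (a joint site of Pbx and Hox proteins) and AGGTCA (a half-site of retinoic acid receptors).
Hoxa2, chr6:52164882-52165081, minus strand: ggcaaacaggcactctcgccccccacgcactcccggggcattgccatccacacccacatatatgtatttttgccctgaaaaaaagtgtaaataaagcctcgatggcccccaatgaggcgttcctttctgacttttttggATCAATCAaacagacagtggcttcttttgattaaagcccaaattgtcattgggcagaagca
Hoxb1, chr11:96365508-96365707, plus strand: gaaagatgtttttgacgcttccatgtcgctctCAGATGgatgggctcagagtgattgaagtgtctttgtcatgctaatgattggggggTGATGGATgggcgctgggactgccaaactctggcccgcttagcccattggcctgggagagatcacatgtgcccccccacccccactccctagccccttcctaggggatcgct
Hoxb4, chr11:96318017-96318216, plus strand: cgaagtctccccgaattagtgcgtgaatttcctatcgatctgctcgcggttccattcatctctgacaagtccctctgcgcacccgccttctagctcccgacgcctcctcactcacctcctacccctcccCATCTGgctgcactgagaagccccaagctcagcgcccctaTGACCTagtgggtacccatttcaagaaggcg
Hoxc4, chr15:103034145-103034344, plus strand: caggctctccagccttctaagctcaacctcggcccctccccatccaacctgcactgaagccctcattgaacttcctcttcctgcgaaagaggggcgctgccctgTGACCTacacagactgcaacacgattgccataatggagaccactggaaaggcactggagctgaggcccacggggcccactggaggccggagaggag
Hoxd3, chr2:74711743-74711942, plus strand: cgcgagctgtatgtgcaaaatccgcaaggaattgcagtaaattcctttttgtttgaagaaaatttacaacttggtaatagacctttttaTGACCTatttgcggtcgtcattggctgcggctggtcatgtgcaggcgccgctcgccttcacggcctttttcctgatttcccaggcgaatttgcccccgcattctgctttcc

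These matches are a description of letters. Of the 24 promoter entries of Hox genes, taken over the 250 bases before the start, 2 held CATCTG, 4 held TGATNNAT and 6 held AGGTCA, while 14.4%, 7.69% and 14.03% of 32841 promoters of all genes did. GACCACCC, the canonical high-affinity site of Gli factors, was in 0 of the 24 entries and in 0.703% of all promoters. At so low a share, 0 of 24 entries cannot set Hox promoters apart from others. The paper also reports a divergent Gli motif of lower affinity, found in most regions shared by Gli3 and Hand2 in the MNP. That motif was not searched here, so the 0 does not mean that Hox promoters lack Gli sites. The half-site occurred in the entries of Hoxb4, Hoxc4, Hoxd3 and Hoxd4, and of Hoxd8 and Hoxd10, which had at most 2 counts in any library.

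The anterior class held most Hox reads. It took 74.8% and 77.3% of the Hox counts in the WT libraries, 74.3% to 91.4% in Hand2 cKO and 59.5% in Gli2/3 cKO. Its summed level was 4.54 ± 1.02 CPM in WT (SD, n = 2) and 5.63 ± 2.85 CPM in Hand2 cKO (n = 3), and 6.24 CPM in the Gli2/3 cKO library. In this class the groups overlapped.

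Hoxb2 and Hoxb3, the HoxB genes of the hindbrain and the posterior arches, were the Hox genes with the highest WT levels. Hoxb2 was read at 1.54 and 2.03 CPM in WT, while the Hand2 cKO libraries held 2.29, 0.95 and 1.59 CPM and Gli2/3 cKO 1.15 CPM. Hoxb3 stood at 1.17 and 2.21 CPM in WT, while the Hand2 cKO libraries held 1.99, 0.845 and 2.14 CPM and Gli2/3 cKO 1.88 CPM. Neither gene separated the groups. Per length the WT order of the Hox genes began with Hoxb2 (1.83 ± 0.127 TPM, SD, n = 2) and Hoxb3 (1.48 ± 0.153 TPM), while Hoxc9 stood at 0.412 ± 0.00128 TPM. Among protein-coding genes Hoxb2 and Hoxb3 stood at the 44.7 and 43.3 percentile of WT levels. A retained-intron transcript of Hoxb2 took 9.2 to 22.1 of its reads in every library. Both genes overlap the antisense Hoxb3os, so without the strand setting their reads cannot be assigned to them with certainty.

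Hoxa2, the selector of second arch identity, differed widely among the Hand2 cKO libraries. It had 5 and 7 counts in WT and 13 in Gli2/3 cKO, but 135, 0 and 35 counts in the Hand2 cKO libraries, or 2.55, 0 and 0.843 CPM. Hoxa3, a gene of the third arch and the thymus, followed the same order in Hand2 cKO with 23, 0 and 4 counts, against 9 and 3 in WT and 9 in Gli2/3 cKO. The spread within Hand2 cKO thus covered both other groups for these HoxA genes.

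Hoxb1, the gene of the rhombomere that supplies the second arch, was higher in the Gli2/3 cKO library than in the other 5. Its level was 0.175 and 0.0884 CPM in WT, while the Hand2 cKO libraries held 0.113, 0.185 and 0.217 CPM and Gli2/3 cKO 0.612 CPM (16 counts). Hoxd1 had 0 counts in both WT libraries, 4, 4 and 5 counts in Hand2 cKO and 1 count in Gli2/3 cKO. All 3 Hand2 cKO libraries were thus above WT, at counts near the limit of 3.

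**Figure D3:**
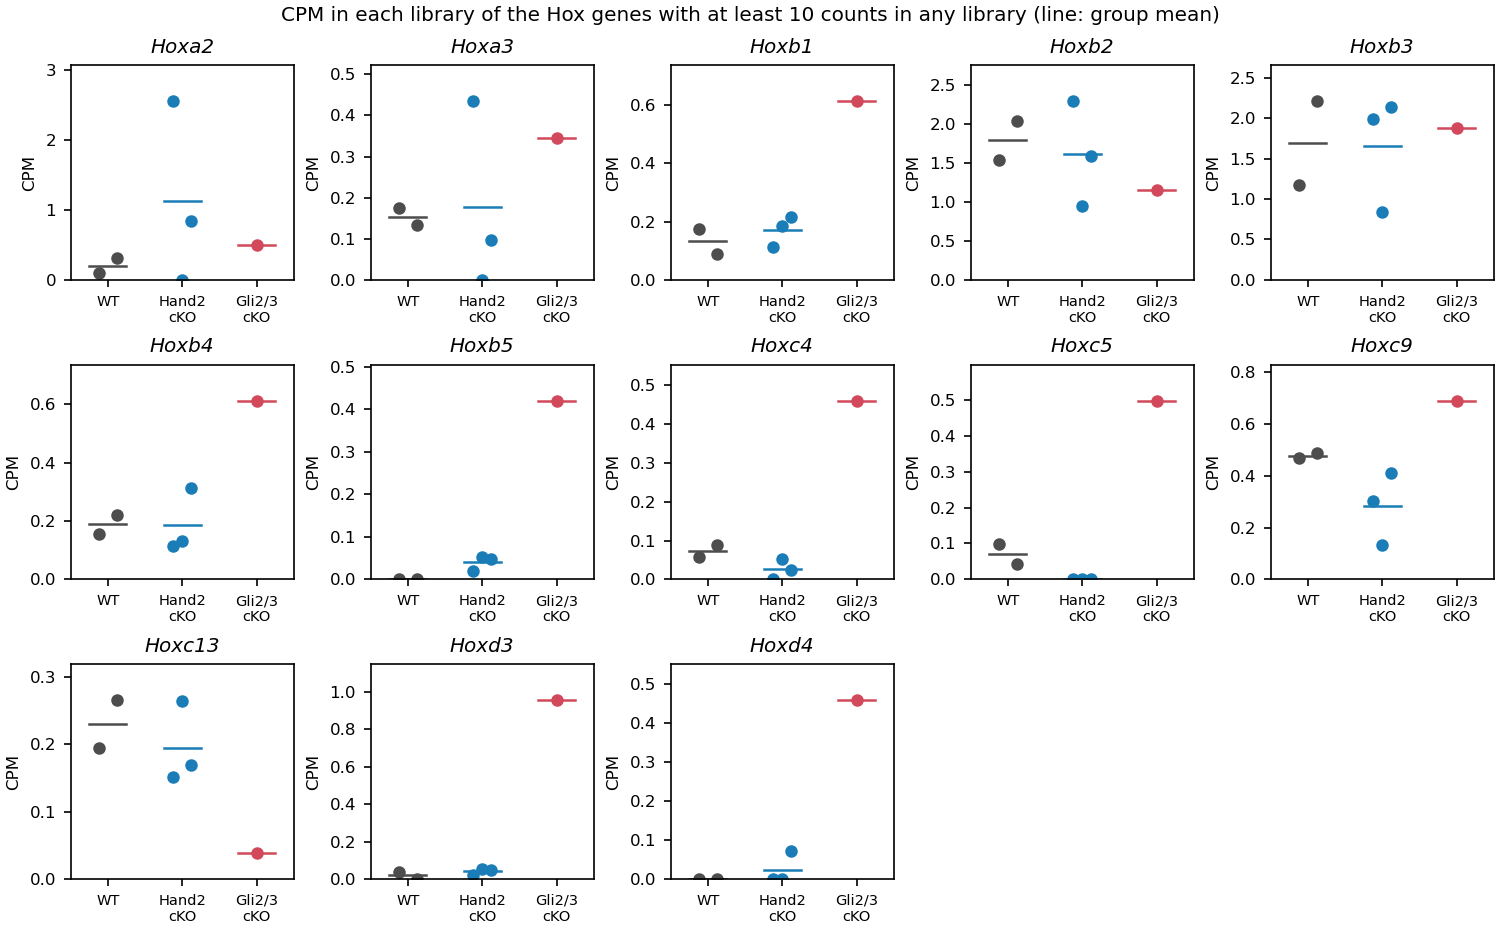
CPM in each library (points) of 13 Hox genes with at least 10 counts in any library, with the group mean as a line and a separate linear axis from 0 for each gene. For Hoxb1, Hoxb4, Hoxb5, Hoxc4, Hoxc5, Hoxc9, Hoxd3 and Hoxd4 the Gli2/3 cKO point lies above all 5 others, while Hoxa2 spans 0 to 2.55 CPM within Hand2 cKO.

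In the Gli2/3 cKO library the Hox signal of groups 4 and 5 was higher than in the other 5 libraries. The central class summed to 0.429 and 0.442 CPM in WT (22 and 10 counts), to 0.208, 0.422 and 0.698 CPM in Hand2 cKO (11, 16 and 29 counts) and to 3.14 CPM in Gli2/3 cKO (82 counts). The Gli2/3 cKO value was 7.21 times the WT mean and 7.08 times the Hand2 cKO mean, and leaving out any 1 of the other libraries moved these ratios within 7.10 to 7.32 and 5.60 to 9.95. By comparison the same ratio to WT was 1.37 for the anterior and 1.13 for the posterior class. By paralog group it was 1.70 for group 3, 7.01 for group 4 (48 counts in Gli2/3 cKO) and 13.5 for group 5 (25 counts). Groups 6 to 8 held 9 counts together in that library. No p-value is attached to these sums, which describe 1 library.

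**Figure D4:**
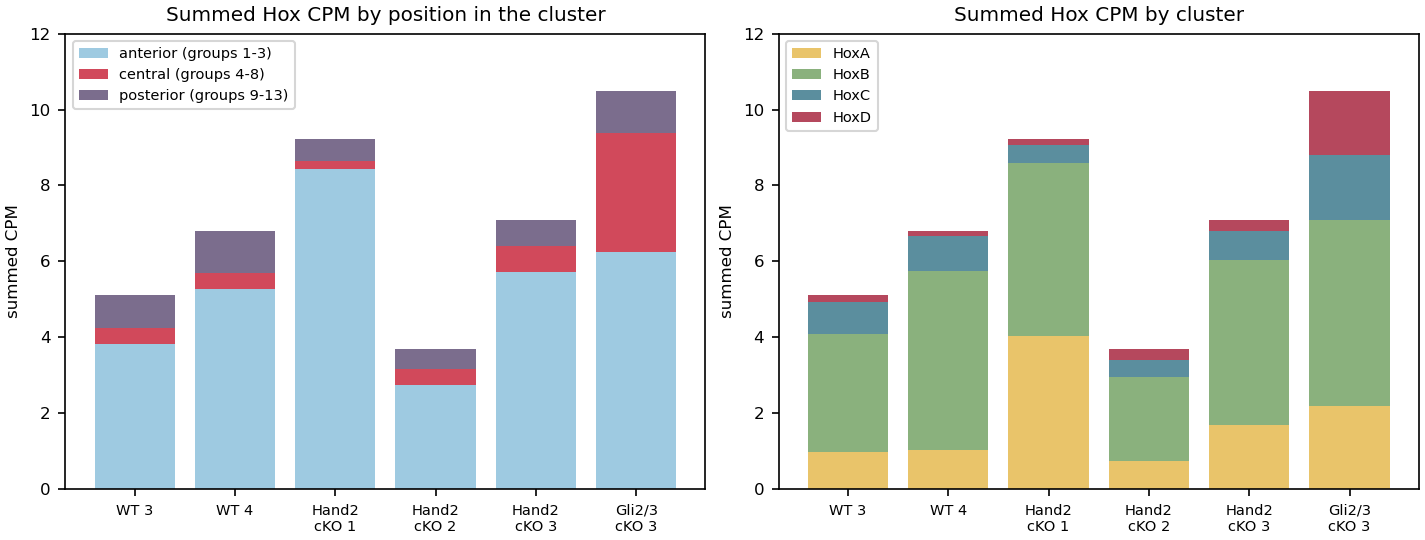
Summed Hox CPM of each library as stacked bars, split by class on the left and by cluster on the right. The total runs from 3.70 CPM in Hand2 cKO 2 to 10.5 CPM in Gli2/3 cKO 3, where the central class (3.14 CPM) and HoxD (1.68 CPM) take a larger part than in the other 5 libraries.

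HoxD, the least read cluster in every library, came nearest to HoxC in Gli2/3 cKO. Its 9 genes summed to 0.175 and 0.133 CPM in WT, while the Hand2 cKO libraries held 0.17, 0.29 and 0.289 CPM and Gli2/3 cKO 1.68 CPM, 10.9 times the WT mean. As a share of Hox counts HoxD took 1.84% to 7.86% in the other 5 libraries and 16.1% in Gli2/3 cKO. HoxB, the leading cluster everywhere, took 49.4% to 69.5% in those 5 libraries and 46.7% in Gli2/3 cKO.

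Hoxd3 and Hoxd4, neighbours in the HoxD cluster that pattern the cervical vertebrae, held most of these reads. Hoxd3 had 2 and 0 counts in WT, 1, 2 and 2 in Hand2 cKO and 25 in Gli2/3 cKO, a pooled ratio of 35.4 to WT with a 95% counting interval of 8.82 to 308. Hoxd4 had 0 counts in both WT libraries, 0, 0 and 3 in Hand2 cKO and 12 in Gli2/3 cKO, at least 4.81-fold higher than WT when WT is set at 3 counts per library. Both genes were thus near 0 in 5 libraries and above the limit in 1. Of the Hoxd3 reads in Gli2/3 cKO, 19.7 were assigned to a retained-intron transcript at chr2:74745722-74748442 that had 0 in the other libraries, and 0 to the transcript that begins within the promoter window shown above. The 2 gene models share exons with each other and with Gm28230, a model across both genes that had 8 counts in Gli2/3 cKO, 3 in WT 3 and 0 elsewhere, so their reads cannot be told apart with certainty. Antisense transcripts Haglr and Hoxd3os1 overlap Hoxd3 and were not analysed here, and no source used here says if counting was by strand.

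The group 4 and 5 genes of the other clusters showed the same library as the highest. Hoxb4, a regulator of blood stem cells and of hindbrain identity, had 8 and 5 counts in WT, 6, 5 and 13 in Hand2 cKO and 16 in Gli2/3 cKO, where its level of 0.612 CPM compared with 0.113 to 0.313 CPM elsewhere. Hoxb5 had 0 counts in both WT libraries, 1, 2 and 2 in Hand2 cKO and 11 in Gli2/3 cKO, at least 4.41-fold higher than WT. Its gene model overlaps the antisense Hoxb5os, which was not analysed here. Hoxa4, which did not reach 10 counts in any library, had 0 and 0 counts in WT, 1, 0 and 1 in Hand2 cKO and 8 in Gli2/3 cKO, at least 3.20-fold higher than WT, and its model overlaps the antisense Gm29430. Hoxa5, the group 5 gene of HoxA, had 1 count in Gli2/3 cKO, 1 in Hand2 cKO 1 and 0 elsewhere, so Hoxb5 and Hoxc5 held the rest of the 25 group 5 counts of the Gli2/3 cKO library.

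In HoxC the neighbours Hoxc4 and Hoxc5, genes of the cervical and upper thoracic levels, were also highest in that library. Hoxc4 had 3 and 2 counts in WT, 0, 2 and 1 in Hand2 cKO and 12 in Gli2/3 cKO, a pooled ratio to WT of 6.79 with a counting interval of 2.23 to 24.6. Hoxc5 had 5 and 1 counts in WT, 0 in each Hand2 cKO library and 13 in Gli2/3 cKO, with a pooled ratio to WT of 6.13 and an interval of 2.17 to 19.7. Against Hand2 cKO the Hoxc5 level was at least 7.17-fold higher. The Hoxc5 and Hoxc10 models share exon sequence, and Hoxc10 had 1 count in all libraries together. Counting intervals and limits cover counting error only and leave out the spread between embryos.

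Beyond group 5 the central genes were at the edge of detection. Hoxa7, Hoxb6, Hoxb7, Hoxb8 and Hoxd8 had at most 4 counts in any library, and Hoxc8 at most 6, in Hand2 cKO 3. Within HoxC the step was abrupt in the Gli2/3 cKO library, with 13 counts in Hoxc5, 0 in Hoxc6 and 0 in Hoxc8.

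The posterior class was led by 2 HoxC genes. Hoxc9, a thoracic gene, had 0.468 and 0.486 CPM in WT, while the Hand2 cKO libraries held 0.303, 0.132 and 0.409 CPM and Gli2/3 cKO 0.689 CPM, so that the groups did not overlap. Hoxc13, known for its role in hair and nails, had 10 and 6 counts in WT, 8, 10 and 7 in Hand2 cKO but 1 in Gli2/3 cKO, and it was the only 1 of the 14 genes other than Hoxb2 whose Gli2/3 cKO level was below both WT libraries. The remaining posterior genes with a count (Hoxa9, Hoxa10, Hoxa11, Hoxa13, Hoxb9, Hoxc10, Hoxd9, Hoxd10, Hoxd11 and Hoxd13) had at most 5 counts in any library. The class summed to 0.857 and 1.11 CPM in WT, while the Hand2 cKO libraries held 0.586, 0.528 and 0.674 CPM and Gli2/3 cKO 1.11 CPM. All 3 Hand2 cKO libraries lay below both WT libraries in this sum, at 0.608 of the WT mean.

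Counted over genes, the Gli2/3 cKO library was the highest of the 6 for 17 of the 33 Hox genes with any count (51.5%), against 18.5% of 23652 symbols with a count. These were 2 of 8 anterior, 11 of 13 central and 4 of 12 posterior genes, and several rest on 1 or 2 reads. Among the central ones Hoxa5, Hoxb6 and Hoxd8 had the same count in a deeper library and were highest in CPM only. The share over all symbols was not matched for level, so it is not a like-for-like background. Without any 1 of the other 5 libraries the number was 17 to 19. All 3 Hand2 cKO libraries lay above both WT libraries for 2 Hox genes (Hoxb5 and Hoxd1) and below both for 4 (Hoxb9, Hoxc4, Hoxc5 and Hoxc9), where 12.3% and 13.7% of all symbols did. At 10 counts or more the number of Hox genes was 5 and 4 in WT, 6, 4 and 6 in Hand2 cKO and 12 in Gli2/3 cKO. Scaled to the depth of the shallowest library these numbers became 4 and 4, 4, 3 and 4, and 11.

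Across all genes 14 Hox genes entered the edgeR fit, whose intervals also hold the spread between libraries. 6 of them (Hoxb1, Hoxb5, Hoxc4, Hoxc5, Hoxd3 and Hoxd4) passed the filter on low counts through the Gli2/3 cKO library alone, so they had to differ there and their number is no support. Calls needed an adjusted p (Benjamini-Hochberg) under 0.05 and more than a 1.5 fold difference. In Gli2/3 cKO against WT edgeR called 0 Hox genes, and of all genes tested it called 0.0114%. Unadjusted p lay below 0.05 for 4 Hox genes with a higher value (Hoxb1, Hoxb5, Hoxd3 and Hoxd4) and for 0 with a lower one, against 1.63% and 2.96% of all genes. DESeq2 also called 0 Hox genes in this comparison and 0.701% of all genes. It had 2 of 33 Hox genes at an unadjusted p below 0.05, both higher, against 239 higher and 608 lower of 23652 genes. The 4 by edgeR became 1 without Hand2 cKO 3, 2 without Hand2 cKO 2 and 1 when only WT and Gli2/3 cKO were fitted. In these fits 12, 13 and 10 Hox genes were tested in place of 14, so part of the drop can be genes no longer tested. The other edgeR alternatives moved the number less.

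Hoxd3 had the largest fitted change among the genes with reads in both groups, at a log2 fold change of 5.06 ± 1.11 (SE, interval 2.35 to 7.77, edgeR adjusted p = 0.625, ranging over the alternatives from 0.270 to 1). Hoxb1, the other plotted gene whose interval left out 0, changed by 2.11 ± 0.814 (interval 0.128 to 4.09, adjusted p = 1). Hoxc4 changed by 2.66 ± 1.22 (-0.32 to 5.64), Hoxc5 by 2.65 ± 1.14 (-0.488 to 5.78) and Hoxb4 by 1.72 ± 0.877 (-0.413 to 3.85) on the log2 scale, each at an adjusted p of 1. Hoxc13 stood at -2.46 ± 1.18 (-5.33 to 0.403). It passed the filter on low counts through WT 4 alone, so its WT side was selected to be high and its direction is no support. For Hoxa2 (1.43 ± 2.14), Hoxa3 (1.11 ± 1.68), Hoxb2 (-0.63 ± 0.605), Hoxb3 (0.17 ± 0.679) and Hoxc9 (0.53 ± 0.76) the intervals also crossed 0, reaching at most 6.64 for Hoxa2, and all adjusted p were 1. Hoxb5 and Hoxd4 have no fitted fold to quote because WT had 0 counts, and their adjusted p were 0.779 and 1.

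Hand2 cKO against WT showed 0 called Hox genes by edgeR or DESeq2, where edgeR called 0.0114% and DESeq2 1.06% of all genes. The deleted gene Hand2 was itself not called by edgeR (log2 -3.40 ± 0.303, edgeR adjusted p = 0.0580). A gene that was not called here can therefore not be read as unchanged. At an unadjusted p below 0.05 edgeR had 0 Hox genes higher and 1 lower (Hoxc5), against 2.44% and 4.02% of all genes. DESeq2 had 0 of 33 Hox genes at that p, against 587 higher and 679 lower of 23652 genes. Hoxa2 had the largest positive fold change with reads in both groups, 2.63 ± 1.67 on the log2 scale (interval -1.43 to 6.68, adjusted p = 0.723). Leaving out Hand2 cKO 1 lowered it to 1.15, whereas it was 3.21 and 2.79 when Hand2 cKO 2 or 3 was left out, and 1.88 and 3.52 when WT 3 or WT 4 was. Hoxa3 (0.23 ± 1.3), Hoxb1 (0.28 ± 0.674), Hoxb2 (-0.14 ± 0.426), Hoxb3 (-0.0031 ± 0.511), Hoxb4 (0.011 ± 0.696), Hoxc4 (-1.46 ± 1.22), Hoxc9 (-0.74 ± 0.578), Hoxc13 (-0.22 ± 0.635) and Hoxd3 (0.54 ± 1.16) had intervals that crossed 0. Without Hand2 cKO 1 the Hoxa3 value fell to -1.61, and without Hand2 cKO 2 that of Hoxb2 was 0.12.

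**Figure D5:**
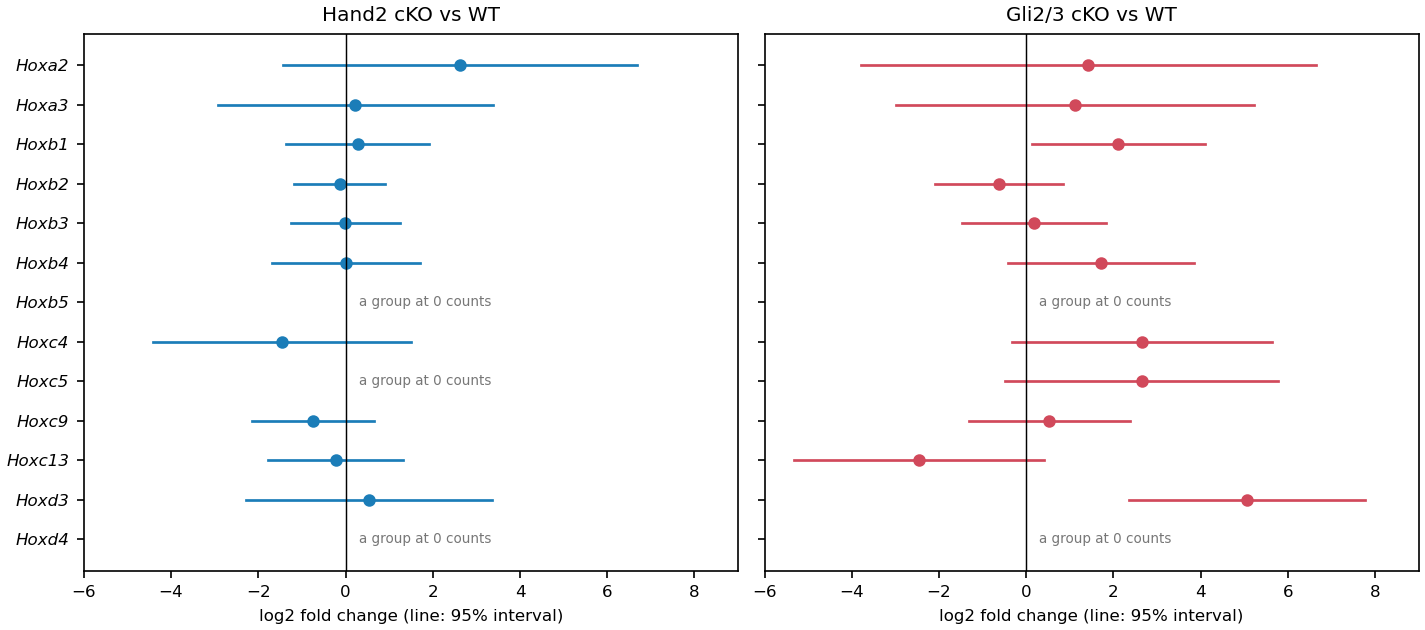
Log2 fold changes (points) with 95% intervals (lines) from the edgeR fit for 13 tested Hox genes, Hand2 cKO against WT on the left and Gli2/3 cKO against WT on the right. Genes with 0 counts in a whole group carry no value. Intervals cross 0 for every plotted gene on the left, and on the right for all but Hoxb1 and Hoxd3.

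Between the mutants, Gli2/3 cKO against Hand2 cKO, edgeR and DESeq2 called 0 Hox genes, with 0.0343% and 0.85% of all genes called. At an unadjusted p below 0.05 edgeR had 6 Hox genes higher (Hoxb1, Hoxb5, Hoxc4, Hoxc5, Hoxd3 and Hoxd4) and 0 lower, against 2.86% and 2.63% of all genes. DESeq2 had 3 of 33 Hox genes higher at that p, against 368 higher and 564 lower of 23652 genes. The 6 by edgeR are the genes that passed the filter through the Gli2/3 cKO library alone. Leaving out Hand2 cKO 1 or Hand2 cKO 2 lowered the number by edgeR at that p to 3, and leaving out Hand2 cKO 3 gave 4. In these fits 14, 13 and 12 Hox genes were tested. Hoxd3 differed by 4.52 ± 0.91 on the log2 scale (interval 2.31 to 6.74, edgeR adjusted p = 0.498, ranging over the alternatives from 0.235 to 0.961). Hoxc4 differed by 4.11 ± 1.17, Hoxd4 by 4.13 ± 1.54, Hoxb5 by 3.34 ± 1.03 and Hoxb1 by 1.83 ± 0.727. Both comparisons rest on the same Gli2/3 cKO library, so they are not separate evidence.

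Hox proteins bind DNA with TALE cofactors of the Pbx, Meis and Pknox families, and these were abundant in every library. The 9 genes summed to 837 to 1033 CPM, and 0 were called higher or lower in either mutant. In Gli2/3 cKO the smallest p values belonged to Meis2, at 207 and 191 CPM in WT, 136 CPM in Gli2/3 cKO and 191 to 242 CPM in Hand2 cKO, and to Pbx4, at 1.84 CPM against 3.14 and 2.61 CPM in WT. Among regulators of Hox transcription (10 genes, 6 of them tested, none called) Cdx2 and Cdx4, which drive central Hox genes in the trunk, had 1 count in all and 0 counts, and Egr2 of the hindbrain had at most 0.133 CPM. Cdx1 was even at 0.322 to 0.607 CPM.

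Retinoic acid, made by Aldh1a enzymes and degraded by Cyp26 enzymes, is the textbook inducer of anterior Hox genes. Of 18 pathway genes, all tested, 0 were called in any comparison. The smallest p values in Gli2/3 cKO were those of Aldh1a3, Dhrs3, Aldh1a2 and Aldh1a1. Aldh1a3 stood at 0.799 and 0.929 CPM in WT, while the Hand2 cKO libraries held 2.67, 2.80 and 2.50 CPM and Gli2/3 cKO 2.45 CPM. Aldh1a2, the main mesodermal synthesis enzyme, stood at 13.8 and 6.54 CPM in WT but 3.02 CPM in Gli2/3 cKO (log2 -1.76 ± 0.483, edgeR adjusted p = 0.853). Dhrs3, which limits retinoid supply, was 8.42 and 8.14 CPM in WT but 3.71 CPM in Gli2/3 cKO, and Aldh1a1 was 0.545 and 1.11 CPM against 0.153 CPM. The 15 Polycomb genes, whose complexes keep unused Hox clusters silent, summed to 1470.4 to 1679.6 CPM with 0 called. Ezh2, their main methyltransferase, was 251 to 331 CPM in all libraries.

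Markers of other tissues were read beside the Hox signal, since a bulk library cannot separate fewer cells of a type from less RNA per cell. Among 12 neural progenitor genes, 11 had a count and 6 were highest in Gli2/3 cKO, as were 18.5% of all symbols with a count. Zic1, a gene of dorsal neural tissue, stood at 0.0974 and 0.0442 CPM in WT, while the Hand2 cKO libraries held 0.7, 0.158 and 0.361 CPM and Gli2/3 cKO 2.72 CPM (log2 5.07 ± 0.931 against WT, edgeR adjusted p = 0.534). Sox1 had 1, 6, 0, 1 and 2 counts in the other 5 libraries and 22 in Gli2/3 cKO, and Neurog1, of the neuronal list, had 10 counts there and 3 in Hand2 cKO 1 alone. The defining ventral markers Nkx2-2, Olig2 and Dbx1 had at most 2 counts in any library, whereas Nkx6-1, also ventral, was read in every library with 11 and 5 counts in WT, 7, 9 and 4 in Hand2 cKO and 2 in Gli2/3 cKO. Irx3, which had the next smallest p after Zic1 against WT, was lowest in Gli2/3 cKO at 13.8 CPM, below the 26.3 and 21.7 CPM of WT and the 27.3 to 39.3 CPM of Hand2 cKO (log2 -0.80 ± 0.295 against WT, edgeR adjusted p = 1). The list summed to 210 and 188 CPM in WT, with 230 to 259 CPM for Hand2 cKO and 231 CPM for Gli2/3 cKO, most of it Msi1 in every library. Whether neural tissue contributed to the Hox reads was not tested.

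For every tissue list, the neural ones included, a library other than Gli2/3 cKO had the highest summed level. The 12 neuronal genes summed to 97.2 to 162 CPM (109 CPM in Gli2/3 cKO, with 4 of 12 genes highest there, against the same 18.5% of symbols). The 10 somite and trunk genes summed to 34.8 to 59.1 CPM in the other libraries and 18.9 CPM in Gli2/3 cKO, although Pax7 (1.38 CPM) and Uncx (0.574 CPM) were highest there. Genes of the posterior pharyngeal endoderm summed to 30.3 to 39.1 CPM and 22.5 CPM in Gli2/3 cKO, and heart genes to 3.23 to 9.20 CPM and 4.21 CPM. Limb bud (87.5 to 124 CPM), endothelial (222 to 274 CPM), surface epithelial (314 to 375 CPM) and neural crest mesenchyme genes (1546 to 1759 CPM) stood at 107, 228, 314 and 1718 CPM in Gli2/3 cKO, where the epithelial sum was the lowest of the 6 libraries. Blood genes ran from 2461 CPM in WT 3 up to 6931 CPM in WT 4 and up to 7504 CPM in Hand2 cKO 2, and the Gli2/3 cKO library held 3079 CPM. Of the genes in these lists, 0 were called in either mutant against WT.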

How the data were processed

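The authors mapped paired-end reads to mm10 and quantified transcripts in Strand NGS. Per the submitters' processing notes DESeq2 was also used. For Strand NGS the version, annotation and strand setting were not stated in the sources used here. The labels name another sequencer than the study. Expected counts (estimated reads, not whole numbers) were deposited for 105129 transcripts in each of 6 libraries. Estimated counts were summed per gene symbol and rounded, where the design had assumed whole counts. The Hox genes and all gene lists were chosen with earlier results of these data known.

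Genes were tested with edgeR 4.0.16 (R 4.3.3) on 17477 genes that passed filterByExpr, with TMM scaling and a quasi-likelihood fit of genotype over all 6 libraries (3 residual degrees of freedom, biological coefficient of variation 0.289). The lone Gli2/3 cKO library borrows the spread of the other groups. CPM uses the scaled library sizes, and TPM uses GENCODE M21 transcript lengths (mm10), in which all 87 Hox transcripts matched. A group at 0 counts was set at 3 counts per library. Intervals are at 95%. DESeq2 1.42.0, upper-quartile scaling, no filter, the 2 groups alone, a length correction and leaving out each library were the alternatives. Of the 33 Hox genes with a count, DESeq2 gave an adjusted p to 12 in Gli2/3 cKO against WT. It did so for 10 in Hand2 cKO against WT and for 8 between the mutants. The other Hox genes could not be called by DESeq2. On simulated data for Gli2/3 cKO against WT (16989 to 17037 genes, changes placed in genes of a mean above 1 CPM), 53.3% of 4-fold and 95.3% of 8-fold changes were recovered by edgeR. Of the Hox genes Hoxb2 and Hoxb3 have such a mean. The simulation gave every gene the same spread, so these shares can be too high for real genes. In the real libraries edgeR did not call Hand2 in Hand2 cKO against WT, at a log2 fold change of -3.40. Libraries of 1 group differed from each other by a chi-square of 24.0 to 225 per degree of freedom over genes, so none was a copy of another. Nothing in the labels says whether the libraries come from separate litters, so p-values measure only the spread between these libraries.

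Named were all Hox genes with at least 10 counts in any library, with every library's value, and the rest by their highest count, and some results that these rules select are left out here. Of the 17 other lists up to 4 genes of the smallest p were to be named. Hoxa4, Gm28230, the Cdx genes, Egr2, Ezh2, the named neighbours of the clusters and the tissue markers beyond 4 a list were added after their values were seen. Up to 6 promoters of the tested Hox genes with the highest mean CPM and an entry were searched, and the 5 with a match were printed. The 18 noncoding genes of the clusters (such as Hotair and Hottip) were not analysed here.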

Additional observations from a re-analysis of the deposited data

How the results depend on the processing

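The number of called Hox genes was 0 in all 3 comparisons under every alternative run, and the smallest adjusted p of any Hox gene in any fit was 0.235 (Hoxd3, Gli2/3 cKO against Hand2 cKO, with the length trend of each library removed). At the depth of these libraries 10 counts equal 0.189 to 0.442 CPM. Counts of all called genes moved widely, from 2 in Hand2 cKO against WT, 2 in Gli2/3 cKO against WT and 6 between the mutants. DESeq2 called 180, 125 and 140 genes, the length correction gave 57, 22 and 44, and no filter gave 45, 21 and 39. With only the 2 groups compared the last 2 comparisons gave 57 and 20, and upper-quartile scaling gave 1 in Hand2 cKO against WT. Leaving out 1 library gave 1 to 39, 0 to 14 and 2 to 23. The cause of these shifts was not tested.

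Of the fold changes of the Hox genes reported, 300 kept their direction, and 16 values of genes with intervals across 0 reversed. In Hand2 cKO against WT Hoxb3 became 0.000932 with no filter and 0.00255 with the length correction, and Hoxb4 became -0.0253 with upper-quartile scaling and -0.00413 with the length correction. With 1 library left out, the ranges in that comparison were -1.61 to 0.75 for Hoxa3, -0.047 to 0.91 for Hoxb1, -0.49 to 0.12 for Hoxb2, -0.41 to 0.51 for Hoxb3, -0.58 to 0.27 for Hoxb4 and -0.019 to 0.90 for Hoxd3. In Gli2/3 cKO against WT that of Hoxb3 was -0.24 to 0.68, and between the mutants those of Hoxa2 and Hoxb3 were -1.77 to 0.23 and -0.14 to 0.40. The summed central class over WT became 6.004 when taken in TPM in place of 7.21, and the other 69 alternatives for the sums moved by less than the spread between libraries. Leaving out 1 library can hardly move a group mean beyond the spread of its own group. The lone Gli2/3 cKO library added no spread to this measure, so the small moves are no support for the sums. At 3 counts or more the detected Hox genes numbered 14 and 9 for WT, 10, 9 and 12 for Hand2 cKO, and 16 for Gli2/3 cKO. The count of Hox genes highest in the Gli2/3 cKO library without each other library was chosen after seeing the data. No paired analysis was possible because the WT and Hand2 cKO libraries share only replicate number 3, and a replicate block leaves no residual degree of freedom.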

Other observations

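Hoxa2 alone gave 135 of the 488 Hox counts of Hand2 cKO 1, whereas Hand2 cKO 2, with 0 Hoxa2 counts at 42659044 estimated counts, held the lowest Hox level of the 6 libraries. Lbx1, a gene of migrating muscle precursors, had 0.604 and 0.707 CPM in WT and 0 counts in each of the 4 mutant libraries (edgeR adjusted p = 0.332 for Hand2 cKO and 0.871 for Gli2/3 cKO against WT). Of the somite and trunk genes, Foxc2 stood at 6.77 CPM in Gli2/3 cKO against 15.9 to 37.8 CPM elsewhere, and Nkx3-2 at 2.64 against 6.15 to 7.71 CPM, with edgeR adjusted p values against WT of 0.719 and 0.534. Their relation to the Hox reads was not tested.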
